A study of Mus musculus with 24 samples.

Results

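J365 and M0 are a pair of mouse myeloid cell lines whose gene expression was measured on single-colour arrays, and they were selected by their line name: 7 of the 24 arrays of the series, 3 of J365 and 4 of M0. The other 17 arrays carry RNA of 5 melanoma groups and served here to estimate the spread between arrays and the effect of the slide, to help choose the probe of each gene, and as a reference for the marker check. The study asked how tumour cells that outlive an immune attack in mice, in models of minimal residual disease of leukemia and melanoma, differ from the cells that started the tumour. According to its methods, cells taken from such animals were expanded in vitro and kept frozen, so that each line is a cultured population. The labels describe both lines only as myeloid cells, with no genotype, strain, treatment, time or age, and do not say what the p20 in all 7 titles means. They do not tie either name to one of the leukemia lines that the study describes. The lines are therefore called J365 and M0 throughout, and every difference is J365 against M0, with no further meaning given to either name. The titles number 2 of the J365 arrays and 3 of the M0 arrays, and the remaining array of each line carries no number and is called replicate 4. Nothing in the labels says that the arrays of a line came from separate cultures. The p-values measure the spread between arrays of a group, estimated over all 24 arrays, 17 of them melanoma. That spread may be technical.

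Myeloid cells are the branch of blood cells that includes granulocytes, mast cells and macrophages. They read their surroundings through cytokine receptors of the interleukin-3 and interleukin-1 families, through Fc receptors that bind antibody, and through paired activating and inhibitory receptors such as the CD200 receptors. Granulocytes and mast cells store proteins in granules, and genes for these proteins mark the branches of the lineage.

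The label was first set against lineage markers. All 12 pan-haematopoietic markers were well above background on all 7 arrays, and the sum of their linear levels was 302 to 324 in J365 and 236 to 327 in M0, against 31.2 to 105 on the melanoma arrays. For 12 melanocyte markers, the sum was 4.34 to 9.76 in J365 and 2.27 to 3.80 in M0, against 1905 to 3338 on the melanoma arrays, and 6 of them, including Tyrp1 and Mlana, were read on none of the 7 arrays. Of 15 stromal and endothelial markers, 11 were read on none of the arrays, and of 20 lymphoid markers 10 were not, among them Rag1 and Thy1. Kit, the stem cell factor receptor, and Flt3 were also at background in both lines, whereas the interleukin-3 receptor subunits Il3ra and Csf2rb and the transcription factors Gata1 and Gata2 were read on all 7 arrays, with differences between the lines from -0.16 to 0.08 on the log2 scale that were not called.

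Between 47.4% and 52.6% of the probes on an array of either line were well above background. The arrays lay on 3 slides, each holding both lines, and the slide accounted for 64.6% of the sum of squares within lines, so that slide was kept as a block. Both replicate 4 arrays departed from their line in the same way. Over 19228 genes read on all 7 arrays, the distance of M0 replicate 4 from the other M0 arrays and of J365 replicate 4 from the other J365 arrays correlated across genes with r = 0.56, genes not being independent replicates. In both, 247 genes lay more than 2-fold below and 75 more than 2-fold above the other arrays of their line, and 3 genes went opposite ways. M0 replicate 3, which shared the slide of both replicate 4 arrays, did not show these levels. The SD of such distances over genes was 0.44 for J365 replicate 4, against 0.50 and 0.61 for replicates 1 and 3. It was 0.58 for M0 replicate 4, against 0.64, 0.39 and 0.41 for replicates 1, 2 and 3. Neither replicate 4 array was therefore the farthest of its line. The slide was not removed from these distances. Ndrg1, a stress-induced gene, stood at 5.40 on J365 replicate 4 against 7.48 and 7.56, and at 5.51 on M0 replicate 4 against 8.28, 8.03 and 8.0. Levels here and below are log2 signals less the 75th percentile of their array. Egln1, an oxygen-sensing prolyl hydroxylase, Slc2a1, the glucose transporter GLUT1, and the immediate early gene Fos were low on the same arrays. The mean level of the 22 glycolysis genes was 4.82 on J365 replicate 4 against 5.49 and 5.6, and 4.65 on M0 replicate 4 against 5.47 to 5.84. Each line had 1 such array, and where a call named below is lost without both of them this is stated beside it.

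**Figure D1:**
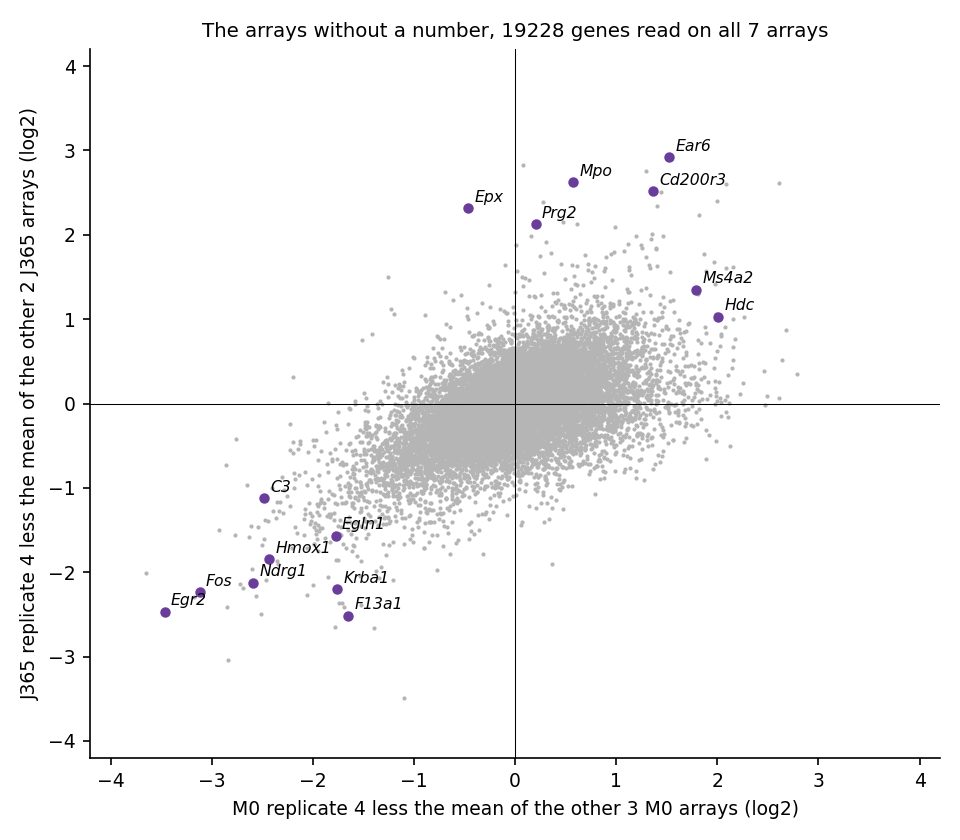
Each point is 1 of 19228 genes read on all 7 arrays. The horizontal axis gives M0 replicate 4 less the mean of the other 3 M0 arrays and the vertical axis J365 replicate 4 less the mean of the other 2 J365 arrays, both in log2 units; named genes are in purple. Egr2, Fos, Ndrg1 and Hmox1 lie low on both axes, Hdc and Ms4a2 high on both, and Epx and Prg2 high on the J365 axis alone.

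Of 20659 genes tested, 499 differed between J365 and M0 (limma, adjusted p under 0.05), which is 2.42% of the genes tested. Of these, 271 were higher in J365 (1.31% of the genes tested) and 228 were lower (1.1%). The differences were wide in size: 257 genes differed at least 2-fold and 156 at least 4-fold, 71 of the latter higher and 85 lower in J365. The J365 and M0 arrays did not overlap for 441 of the 499 genes, against 8.49% of all genes tested. On slides 2 and 3 all 499 genes went the same way as in the fit over all slides, and on slide 1 all but 1 did. The genes were called on these same arrays, so this agreement is a description. Where at least 2 probes of a called gene were read in a line, all of its probes went the same way for 108 of 115 genes. Leaving out both replicate 4 arrays gave 380 calls, 295 of them among the 499. The count was sensitive to single arrays. Without array 3 of the melanoma group D, on which 89.9% of probes were well above background, 866 genes were called, among them all 499, and without M0 replicate 4 there were 795. Without J365 replicate 1, J365 replicate 4, M0 replicate 2 or M0 replicate 3 there were 316, 263, 312 and 333. The split of the calls rested on the scaling of the arrays: with no scaling, the median difference over all genes moved from 0.02 to 0.22 on the log2 scale, and 714 of 857 calls were higher in J365. The direction of small differences is therefore relative to the 75th percentile of each array.

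**Figure D2:**
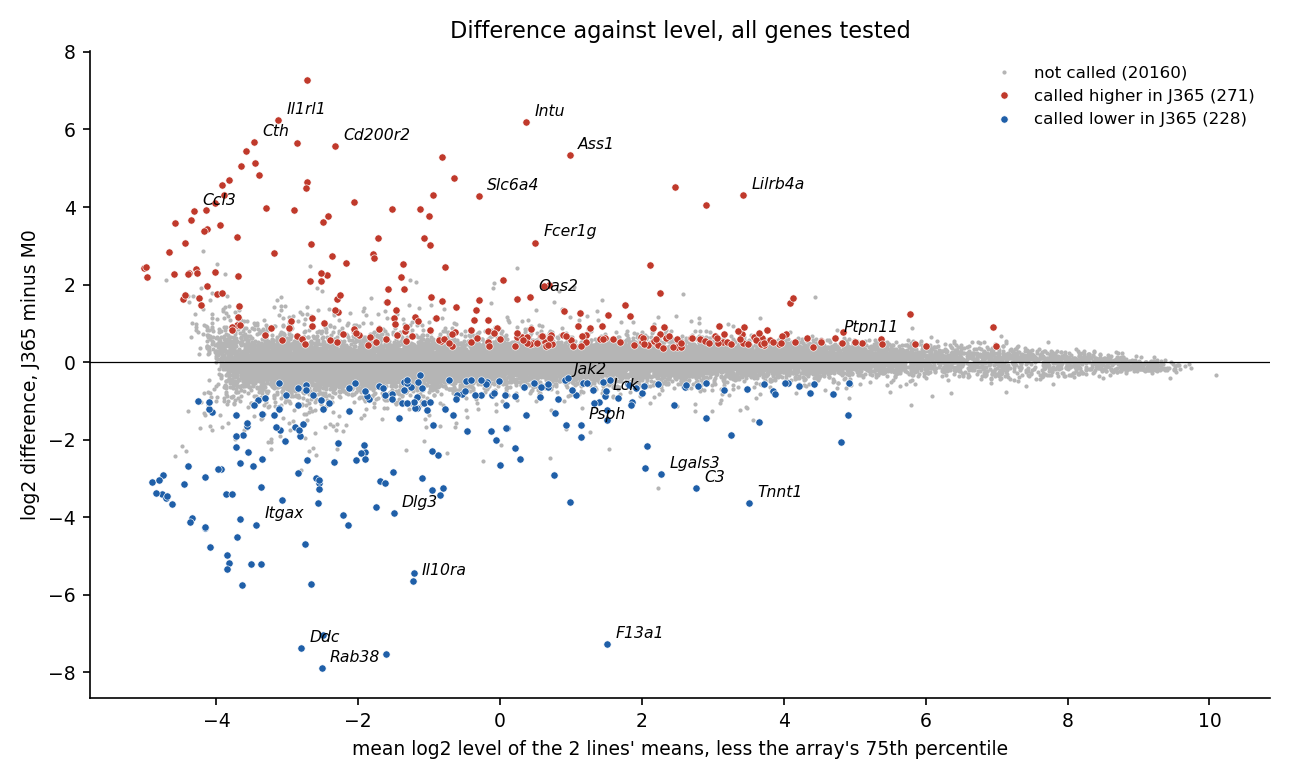
Each point is 1 of 20659 genes tested. The horizontal axis is the mean of both lines' log2 levels, the vertical axis the log2 difference J365 minus M0; red marks 271 genes called higher and blue 228 called lower in J365. Lilrb4a, Ass1 and Intu lie far above 0 and F13a1, Tnnt1 and C3 far below it at levels well above background.

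Largest rises and falls were ranked over called genes with a RefSeq symbol, without Gm, Rik, LOC or BC names, whose lines did not overlap. Among those read on all arrays of both lines, Intu had the largest rise. It encodes a planar cell polarity effector that takes part in building cilia. Intu stood at 3.61, 3.81 and 3.06 on the 3 J365 arrays and between -3.39 and -2.27 on the 4 M0 arrays. The groups did not overlap, and the level was 72.7-fold higher in J365 (log2 difference 6.18, SE 0.30, limma adjusted p = 2.3e-10). Its partners in the same effector complex were not called: Fuz differed by -0.08 and Wdpcp by 0.42 on the log2 scale (adjusted p = 0.85 and 0.077).

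Ass1, which encodes argininosuccinate synthase and so allows a cell to make arginine from citrulline, stood at 3.52, 3.66 and 3.77 in J365. In M0 it was between -2.18 and -1.42. The level was 40.3-fold higher in J365 (log2 difference 5.33, SE 0.42, limma adjusted p = 1.6e-07). The gap within a slide was 5.84, 5.25 and 5.15 on slides 1, 2 and 3. No other member of the list of 14 tested arginine and polyamine genes was called, and the list's median difference was 0.11; it had 2 calls without array 3 of melanoma group D and 3 with no scaling. Asl, the next enzyme of the pathway, differed by -0.10 (adjusted p = 0.85), the arginine transporter Slc7a1 by 0.50 (adjusted p = 0.13) and the polyamine enzyme Odc1 by 0.35 (adjusted p = 0.73). The arginases Arg1 and Arg2 and Otc, the enzyme that makes citrulline from ornithine, were at background on all 7 arrays.

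To show what the start regions of such genes look like, the 250 bases before the annotated start are given for 4 called genes with 1 start in the promoter table: Ass1 and Intu, which were read in both lines, Il18rap, read in J365 alone, and Ppp1r21, read in M0 alone. The sequences are from RefSeq, build GRCm38.p6, all on the plus strand, and CpG dinucleotides are in capitals. They lie at chr2:31470020-31470269, chr3:40540517-40540766, chr1:40515112-40515361 and chr17:88529874-88530123.
Ass1: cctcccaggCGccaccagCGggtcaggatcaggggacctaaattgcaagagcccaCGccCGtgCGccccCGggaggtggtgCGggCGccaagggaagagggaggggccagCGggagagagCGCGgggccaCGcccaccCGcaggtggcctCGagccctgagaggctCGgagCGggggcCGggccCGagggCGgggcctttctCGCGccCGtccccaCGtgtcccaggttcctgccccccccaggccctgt
Intu: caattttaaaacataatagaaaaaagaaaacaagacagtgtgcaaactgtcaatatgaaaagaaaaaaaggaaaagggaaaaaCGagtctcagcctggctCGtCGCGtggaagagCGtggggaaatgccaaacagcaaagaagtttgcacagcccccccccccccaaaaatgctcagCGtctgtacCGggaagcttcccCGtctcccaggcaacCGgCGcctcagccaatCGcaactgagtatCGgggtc
Il18rap: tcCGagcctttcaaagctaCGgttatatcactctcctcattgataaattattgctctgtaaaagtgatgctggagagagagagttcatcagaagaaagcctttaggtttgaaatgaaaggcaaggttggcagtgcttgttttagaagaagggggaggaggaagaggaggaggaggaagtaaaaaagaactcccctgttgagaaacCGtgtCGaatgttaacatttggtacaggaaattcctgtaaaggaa
Ppp1r21: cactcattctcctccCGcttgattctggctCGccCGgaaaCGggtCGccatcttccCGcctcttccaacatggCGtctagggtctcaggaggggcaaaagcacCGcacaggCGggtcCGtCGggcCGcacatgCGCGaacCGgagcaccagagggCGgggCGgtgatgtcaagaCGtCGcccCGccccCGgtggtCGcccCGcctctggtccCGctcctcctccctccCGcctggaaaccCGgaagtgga
These stretches hold 23, 12, 4 and 26 CpG dinucleotides, counted on the strand shown. Of the 32851 promoters in the table, 13.3% hold as many as that of Ass1 or more, 9.59% as many as that of Ppp1r21 or more, and 44.4% as few as that of Il18rap or fewer. Over all genes tested that have a promoter in the table, the median was 15 and 18.2% held 5 CpGs or fewer. Among called genes with a difference of 4-fold or more, the median was 6.5 and 42.3% of 97 held 5 or fewer. Among called genes with a difference under 2-fold, the median was 16 and 10.6% of 160 held so few. Among called genes read in 1 line alone, 46.2% of 26 for J365 and 39.1% of 23 for M0 held 5 or fewer. Only 97 of 156 genes at 4-fold or more and 160 of 242 under 2-fold had a promoter in the table. The large differences thus fell more often on CpG-poor starts than the small ones did, as a description with no test. The part of the level and of the filter in this was not tested.

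Lilrb4a, an inhibitory receptor of the leukocyte immunoglobulin-like family, stood at 5.14, 5.55 and 6.10 in J365 and at 1.15 to 1.41 in M0, a 19.8-fold difference (limma adjusted p = 4.0e-06). Its probe may also bind RNA of the close copy Lilrb4b, which had no probe named for it here. Avil, encoding the actin-binding protein advillin, was 39.3-fold higher, at 1.65 to 2.08 in J365 and -3.90 to -2.69 in M0. Slc6a4, the serotonin transporter, stood at 1.86, 1.70 and 1.85 in J365 and at -1.95, -2.05, -2.11 and -3.51 in M0, a 19.4-fold difference. Fcer1g, the signalling chain shared by IgE and IgG receptors, lay within 2.01 to 2.06 on the J365 arrays and within -1.42 to -0.56 on the M0 arrays, an 8.46-fold difference (SE 0.22 on the log2 scale, adjusted p = 3.2e-08). Gcm2, a transcription factor, was 13.7-fold higher but spread from 0.00 to 1.46 over the J365 arrays. Fam167a was 8.06-fold higher. Gimap3, a GTPase of the immunity-associated family, was 5.74-fold higher with an adjusted p of 0.038, and that call was lost in 6 of the 8 fits that left out 1 array.

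**Figure D3:**
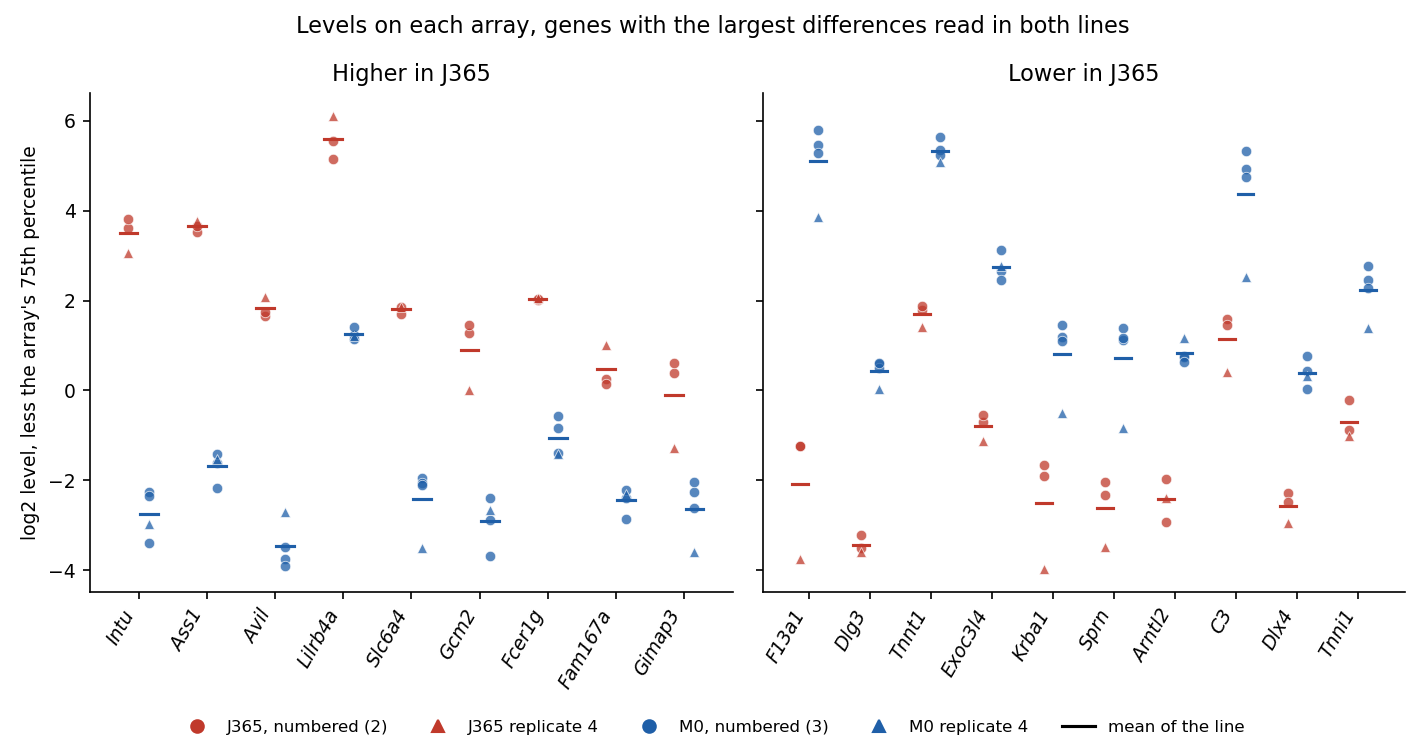
Each point is 1 array: red for J365 and blue for M0, circles for numbered arrays and triangles for replicate 4; bars are the means of the line. The vertical axis is the log2 level less the 75th percentile of the array. The genes shown were chosen among those whose lines did not overlap. The triangles lie low for F13a1, Krba1, Sprn and C3 in both lines.

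F13a1 showed the largest fall among the ranked genes read in both lines. It encodes the catalytic subunit of coagulation factor XIII, a transglutaminase made by monocytes, macrophages and megakaryocytes. It stood at -1.23, -1.24 and -3.75 in J365 and at 5.79, 5.47, 5.28 and 3.86 in M0, the lowest value of each line being replicate 4. The lines did not overlap, and the level was 155-fold lower in J365 (log2 difference -7.27, SE 0.42, limma adjusted p = 2.2e-09). A second probe gave a log2 difference of -5.47. F13b, the carrier subunit, was at background on all arrays, and Tgm2, the tissue transglutaminase, differed by 0.33 (adjusted p = 0.90). F13a1 was well above background on none of the 17 melanoma arrays.

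Dlg3, a scaffold protein of the cell polarity machinery encoded on the X chromosome, lay between -3.59 and -3.22 in J365 and between 0.04 and 0.62 in M0. It was 14.9-fold lower in J365 (SE 0.14 on the log2 scale, adjusted p = 3.5e-12), and the gap was -3.81, -3.92 and -4.01 within the 3 slides. Of its relatives, Dlg1 differed by -0.28 and Dlg4 by -0.18 on the log2 scale with no call, and Dlg5 was at background. Of 22 polarity genes tested, Intu and Dlg3 were the only calls, 1 in each direction.

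A pair of slow skeletal muscle troponin genes was lower in J365. Tnnt1, slow troponin T, stood at 1.80, 1.88 and 1.42 in J365 and 5.09 to 5.64 in M0, 12.5-fold lower, with 2 probes at -3.64 and -3.46 on the log2 scale. Tnni1, slow troponin I, was 7.5-fold lower, between -1.01 and -0.22 in J365 and between 1.39 and 2.78 in M0. The fast and cardiac troponins were not called where they were tested: Tnnt3 differed by 0.05 and Tnni3 by -0.61, and Tnnt2 was at background.

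C3, the central complement component, was 9.46-fold lower in J365, at 1.59, 1.46 and 0.40 against 5.32, 4.93, 4.74 and 2.52 in M0. Exoc3l4 was 12.1-fold lower and Sprn, encoding the prion-like protein shadoo, 9.78-fold lower. Krba1 was lower by a log2 difference of -3.42, with 2 probes at -3.42 and -3.56. Sprn lost its call without J365 replicate 4 (adjusted p = 0.077). Arntl2, a clock transcription factor, was 9.54-fold lower and Dlx4, a homeobox gene, 7.90-fold lower. These falls and the rises above were all in the same direction on each of the 3 slides. That followed from their choice among genes whose lines did not overlap.

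Some genes were readable in 1 line alone. Among the called genes, 41 had a probe well above background on all J365 arrays and no probe so on any M0 array, and 43 had the reverse. For these the measured fold is not a fold of RNA, because the dim line has only an upper bound. Each is therefore given as the least fold that the background allows. Named below are the 8 largest such bounds in each direction, among the 28 and 24 genes with a RefSeq symbol of the ranked kind. Cd200r2, an activating member of the CD200 receptor family, was at least 22.7-fold higher in J365. Dhrs2, a short-chain dehydrogenase, was at least 13.1-fold higher, Dab2ip, a Ras GTPase-activating protein, at least 12.3-fold and Cth, cystathionine gamma-lyase, which makes cysteine, at least 11-fold. Prr19 was at least 8.76-fold higher, Il18rap, the accessory chain of the interleukin-18 receptor, at least 7.84-fold, the noncoding RNA Platr26 at least 6.83-fold and Afap1l2 at least 5.96-fold. Il18rap stood at -1.11, -1.04 and -1.21 in J365, and the M0 arrays lay between -6.31 and -6.09.

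In the other direction, Rab38, a small GTPase that serves lysosome-related organelles such as melanosomes, was at least 49.8-fold lower in J365. It stood at 1.74, 1.46, 1.07 and 1.37 in M0 and at background on the J365 arrays, and it was read on all 17 melanoma arrays. Ddc, which decarboxylates DOPA and 5-hydroxytryptophan to dopamine and serotonin, was at least 35.1-fold lower in J365. Dhdh was at least 17.7-fold lower, Sh2b2, an adaptor of receptor tyrosine kinases, at least 14.1-fold, Uaca at least 11-fold, Ppp1r21 at least 10.9-fold, the helicase gene Ddx43 at least 10.1-fold and the kallikrein Klk8 at least 8.32-fold. Uaca and Ppp1r21 were read on all 17 melanoma arrays as well, whereas Ddx43 and Klk8 were read on 1.

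In the interleukin-1 family and its signalling, 2 of 11 tested genes were called, both higher in J365, and both encode receptor chains. Each count of calls in a list here and below stands against 2.42% called over all genes tested. A called gene read on every array of 1 line only entered the test through that line, so its direction was largely set by the filter. This holds for both genes here, and the 9 genes of the list read on all 7 arrays were not called. Il1rl1 encodes ST2, the receptor of interleukin-33. It stood at -0.78, -0.77 and 1.35 in J365 and between -6.31 and -6.09 in M0 with the same probe, so that the probe was at least 16.3-fold higher in J365; another probe of the gene was above background on 1 M0 array. Il18rap lies in the same gene cluster on chromosome 1. The other cluster members Il1r1, Il1r2, Il1rl2 and Slc9a4 were at background on all 7 arrays, and Il18r1, the ligand-binding chain of the interleukin-18 receptor, was read on J365 replicate 1 alone. Il1rap, the co-receptor that ST2 shares with other members, was read on all arrays and differed by 0.05 (SE 0.14, adjusted p = 0.93). The ligands Il33 and Il18 were at background in both lines. The median difference over the 11 genes was 0.05, against 0.02 over all genes tested.

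Of 8 mast cell and basophil markers tested, 2 were called and both were higher in J365. Fcer1g is given above. Cpa3, mast cell carboxypeptidase, stood at -3.74, -4.02 and -1.75 in J365 and at -5.38, -5.81, -6.52 and -3.76 in M0, where it was read on 1 of 4 arrays. It was at least 1.78-fold higher with unread arrays at the lowest signal well above background (adjusted p = 0.034), the lines overlapped, and its call was lost in 5 of 8 fits without 1 array. Ms4a2, the beta chain of the IgE receptor, differed by -0.42 and Hdc, which makes histamine, by 0.09, neither called. Mcpt1, Mcpt2 and Mcpt4 were read on none of the arrays. The sum of the linear levels of the 17 markers on the array was 69.4 to 81.4 in J365 and 61.3 to 71.8 in M0, so the sums overlapped.

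Of 12 neutrophil granule genes tested, none was called (limma; 3 had an unadjusted p under 0.05). Without array 3 of melanoma group D 3 were called, and 2 with quantile normalization or normexp. Mpo, myeloperoxidase, stood at -1.57, -1.42 and 1.14 in J365 and at 1.48 to 2.46 in M0 (log2 difference -2.47, SE 0.68, adjusted p = 0.068). It was called in 3 of 20 other fits. Outside the fixed lists, and chosen after their values were seen, 3 genes for eosinophil granule proteins were lower in J365: Prg2, major basic protein, Epx, eosinophil peroxidase, and Prg3. Epx stood at 0.17, 0.19 and 2.5 in J365 and at 3.69, 3.25, 2.97 and 2.84 in M0 (log2 difference -2.18, SE 0.47, adjusted p = 0.014). Prg2 stood at -0.10, -0.07 and 2.05 against 3.05 to 3.73 (log2 difference -2.73, SE 0.61, adjusted p = 0.022). For both genes J365 replicate 4 was the highest of the J365 arrays, and without both replicate 4 arrays the differences were -3.08 and -3.34 (adjusted p = 0.00045 and 0.027). Ear6, an eosinophil-associated ribonuclease, differed by -1.09 (adjusted p = 0.49).

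In the list of CD200 receptor and CD300 genes, which also held Lilrb4a of another receptor family, 3 of 12 tested genes were called, Cd200r2 and Lilrb4a higher and Cd300a lower in J365, and the median difference was 0.33. The list had 5 calls without array 3 of melanoma group D. Cd300a, an inhibitory receptor, stood at -2.45 to -1.39 in J365 and -1.13 to -0.24 in M0, 2.25-fold lower. Cd200r1, the inhibitory CD200 receptor, was read on all arrays and differed by 0.31 (adjusted p = 0.82), and Cd200r3 and Cd200r4 by 0.91 and 1.01 with no call. Among 17 checkpoint ligands and receptors tested, Lgals3 was lower and Havcr2 higher in J365. Lgals3, galectin-3, stood at 1.46, 1.29 and -0.10 in J365 and at 4.30, 4.33, 3.79 and 2.21 in M0, 7.41-fold lower with 2 probes at -2.89 and -2.78 on the log2 scale (adjusted p = 0.0011). Havcr2, which encodes the receptor TIM-3, was 2.11-fold higher (adjusted p = 0.0072), and the call was lost without J365 replicate 4 (adjusted p = 0.11). Cd274, encoding PD-L1, was read on all 7 arrays and differed by -0.06 (SE 0.21, adjusted p = 0.95).

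Chemokines and their receptors gave 2 calls in 17 tested genes, both higher in J365 and both encoding inflammatory chemokines of the CC family. Both entered the test through J365, so their direction was largely set by the filter. The list had 7 calls without array 3 of melanoma group D or with quantile normalization, and 5 with normexp. Ccl3 was read in J365 alone and was at least 3.28-fold higher. Ccl4 stood at -0.08, -0.03 and -0.94 in J365 and -4.33 to -2.48 in M0, 6.87-fold higher (adjusted p = 1.6e-06), and it was read on 3 of 4 M0 arrays. Their neighbours Ccl5 and Ccl6 differed by 0.19 and 1.18, neither called. Of 26 cytokine receptors tested, 1 was called, 3.85% against 2.42% over all genes tested. Il10ra, the ligand-binding chain of the interleukin-10 receptor, stood at -2.64, -2.99 and -6.27 in J365 and at 2.59, 2.79, 2.66 and -1.97 in M0. It was at least 29.6-fold lower in J365 (adjusted p = 0.0012), where 2 of 3 arrays were above background, and replicate 4 was the lowest array of each line. The list had 4 calls without array 3 of melanoma group D and 5 with quantile normalization. Il10rb, the other chain, differed by 0.05.

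Of 23 interferon-stimulated genes tested, 3 were called, all higher in J365, and 21 had a value above 0, against 10987 of all 20659 genes tested. All 23 were read on all 7 arrays. Among 11888 genes with a RefSeq position read on all 7 arrays, 7137 had a value above 0. Their median difference was 0.30, and it was between 0.24 and 0.50 under the other scalings of the arrays. Usp18, which removes ISG15 from proteins, stood at 1.26, 1.07 and 0.91 in J365 and -0.83 to -0.27 in M0, 3.11-fold higher (adjusted p = 0.00076). Oas2, an oligoadenylate synthetase, was 3.20-fold higher (adjusted p = 0.024) and lost its call in 4 of 8 fits without 1 array. Irgm1, an immunity-related GTPase, was 1.34-fold higher (adjusted p = 0.034) and lost it in 6 of 8. Stat2, which helps to transmit the interferon signal, differed by 0.03 and was not called. Without both replicate 4 arrays Oas2 and Irgm1 were not called.

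Amino acid stress genes are those that ATF4 is known to switch on when amino acids run short. Of 34 tested, 2 were called, in opposite directions, which is 5.88% against 2.42% of all genes tested. A value above 0 was found for 28 of the 34, against 10987 of all 20659 genes tested, and the median was 0.33. Among 11888 genes with a RefSeq position read on all 7 arrays, as 32 of the list were, 7137 had a value above 0. Cth is given above as higher. Psph, the last enzyme of serine synthesis, stood at 0.26, 0.05 and 0.64 in J365 and at 2.03, 1.91, 1.67 and 2.22 in M0, 3.1-fold lower (log2 difference -1.63, SE 0.29, adjusted p = 0.0030). The earlier enzymes Phgdh and Psat1 differed by 0.34 and 0.20 with no call. Cbs, which acts before Cth in making cysteine, differed by 0.72 (adjusted p = 0.18). Asns, Shmt2 and Pck2, which the study names in its account of its leukemia lines, differed by 0.41, 0.54 and 0.60 (adjusted p = 0.63, 0.21 and 0.43). The list's median stayed above 0 under every scaling tried, from 0.25 to 0.53.

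Of 31 apoptosis regulators tested, 2 were called, both higher in J365, 6.45% against 2.42% over all genes tested. Bcl2a1d, of the A1 family of BCL2-like survival proteins, stood at -0.06, -0.37 and 0.45 in J365 and at -4.19 to -4.04 in M0, where it was read on 1 of 4 arrays, so that it was at least 16.4-fold higher in J365 (adjusted p = 1.1e-09). Bcl2a1c, outside the lists and chosen after its value was seen, was read in J365 alone and was at least 1.22-fold higher. The A1 copies are nearly identical, so their probes may read one another. Ripk1 was 1.6-fold higher (adjusted p = 0.0055) and lost its call without both replicate 4 arrays (adjusted p = 0.072). Bcl2, Bcl2l1 and Mcl1 differed by 0.29, 0.38 and -0.21 with no call.

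Of 32 genes of lysosome-related organelles tested, Rab32 and Rab29 were higher and Rab38 lower in J365, 9.38% against 2.42% over all genes tested. Rab32, the closest relative of Rab38, stood at 1.89, 1.79 and 1.09 in J365 and at -0.49 to 0.56 in M0, 2.48-fold higher (adjusted p = 0.00058), while Rab38 was at background in J365. Rab29 was 1.43-fold higher. In biogenic amine metabolism, Slc6a4 was higher and Ddc lower among 13 genes tested. Tph1, which starts serotonin synthesis, differed by 1.48 (adjusted p = 0.42) and Slc18a2, the vesicular amine transporter, by -0.31 (adjusted p = 0.52).

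Among 32 integrins and adhesion molecules tested, Itgax and F11r were lower and Cd81 higher in J365, and the list had 6 calls without array 3 of melanoma group D. Itgax, encoding CD11c, was read in M0 alone and was at least 7.19-fold lower in J365, while Itgam (CD11b), Itgb2 and Itgal were read in both lines and differed by -0.20, 0.44 and 0.36 with no call. F11r was 2.5-fold lower. Cd81 was 1.55-fold higher and lost its call in 5 of 8 fits without 1 array and without both replicate 4 arrays. Of 39 actin and septin genes, Avil and Tln1 were higher and Scin lower, and the list had 5 calls without that array. Tln1, talin, differed by 0.42 with 1 probe and by 0.06 with another (limma adjusted p = 0.036 for the first). Scin, scinderin, differed by -1.06 (limma adjusted p = 0.037). Leaving out 1 array ended the Tln1 call in 6 and the Scin call in 5 of 8 fits. Leaving out both replicate 4 arrays ended the Tln1 call. Of 16 coagulation genes, F13a1 and Tfpi were lower. Tfpi, tissue factor pathway inhibitor, was at least 3.1-fold lower (adjusted p = 3.6e-06) and was read on 1 of 3 J365 arrays.

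The monocyte and macrophage list gave F13a1 lower and Fcgr1 higher among 8 genes tested. Fcgr1, the high-affinity IgG receptor that signals through the chain encoded by Fcer1g, was 2.09-fold higher (adjusted p = 0.017), at -0.84 to -0.39 against -2.08 to -1.14, and lost its call in 5 of 8 fits without 1 array. The sum of the linear levels of that list was 25.3 to 31.9 in J365 and 55.1 to 78.8 in M0. Without F13a1 the sums overlapped, at 24.8 to 31.4 and 23.7 to 40.6. Of 8 lymphoid markers tested, Lck, a Src-family kinase, was 1.84-fold lower in J365 (adjusted p = 0.00044), and without array 3 of melanoma group D the list had 2 calls. The lymphoid sums were 16.5 to 22.6 and 22.5 to 38.1. Whether a minor population or the level per cell differs cannot be told apart in bulk RNA.

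Of 40 haematopoietic transcription factors tested, 2 were called, 5.0% against 2.42% over all genes tested, and 4 without array 3 of melanoma group D. The calls, Mitf and Zeb2, were both higher in J365, by 2.29-fold and 1.48-fold. Neither was called without both replicate 4 arrays (adjusted p = 0.082 and 0.24). Mitf is also the only called member of the melanocyte list, of which 3 genes were tested; in blood it is known as a mast cell factor. Of 24 JAK-STAT genes, Ptpn11, encoding the phosphatase SHP2, was 1.53-fold higher and Jak2 1.38-fold lower (adjusted p = 0.034 for each), and leaving out 1 array ended the first call in 5 and the second in 6 of 8 fits. Ptpn11 was not called without both replicate 4 arrays.

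In 11 of the 34 lists no gene was called. Beside the neutrophil list, they were the pan-haematopoietic, erythroid and megakaryocyte, and stromal markers, antigen presentation by MHC class I and class II, eicosanoid synthesis, the cell cycle, cyclin-dependent kinase inhibitors, glycolysis and sterol synthesis. Unadjusted p-values under 0.05 were found for 1, 1, 0, 2, 0, 3, 5, 1, 1 and 2 of their genes in that order. The member with the smallest p is given for each. Mcm5, a subunit of the replicative helicase, differed by 0.52 (adjusted p = 0.071), and the median over 38 cell cycle genes was 0.07. Cdkn2a, the locus of the p16 and p19 inhibitors, stood at 1.65, 1.34 and 1.23 in J365 and at -1.69 to -0.45 in M0. The lines did not overlap, but the adjusted p was 0.15 (limma, log2 difference 2.42, SE 0.80). The SD between arrays was 0.22 in J365 and 0.53 in M0. The SE also takes in the melanoma arrays, where levels ran from -6.77 to -1.46 (median -6.55) and 1 array was above background. In the fit without array 3 of melanoma group D, the cyclin-dependent kinase inhibitor list had 1 call, against 0 in the main fit. What part the melanoma arrays had in the SE was not tested further. Cdkn2a was called in 4 of 20 other fits, with limma adjusted p from 1.8e-06 to 0.41. It was not called in 7 of the 8 fits that left out 1 array. Hmgcs1 of sterol synthesis differed by 0.84 (adjusted p = 0.061), Pfkfb3 of glycolysis by 0.58 (0.19), Ggt1 of the eicosanoid list by -2.06 (0.14) and Pf4 of the megakaryocyte list by 1.23 (0.40). Nlrc5, the MHC class I transactivator, differed by 0.81 with 1 probe and 0.01 with another (adjusted p = 0.29 for the first). Cd74 of the class II list, Lyn of the pan-haematopoietic and Pecam1 of the stromal list differed by 0.54, 0.30 and 0.15 with no call. Glycolysis had the lowest median of these, -0.21, with 18 of 22 genes below 0, and with no scaling between arrays that median was -0.01. Without array 3 of melanoma group D, 1 gene was called in each of the erythroid and megakaryocyte, eicosanoid, cell cycle, cyclin-dependent kinase inhibitor and sterol lists.

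**Figure D4:**
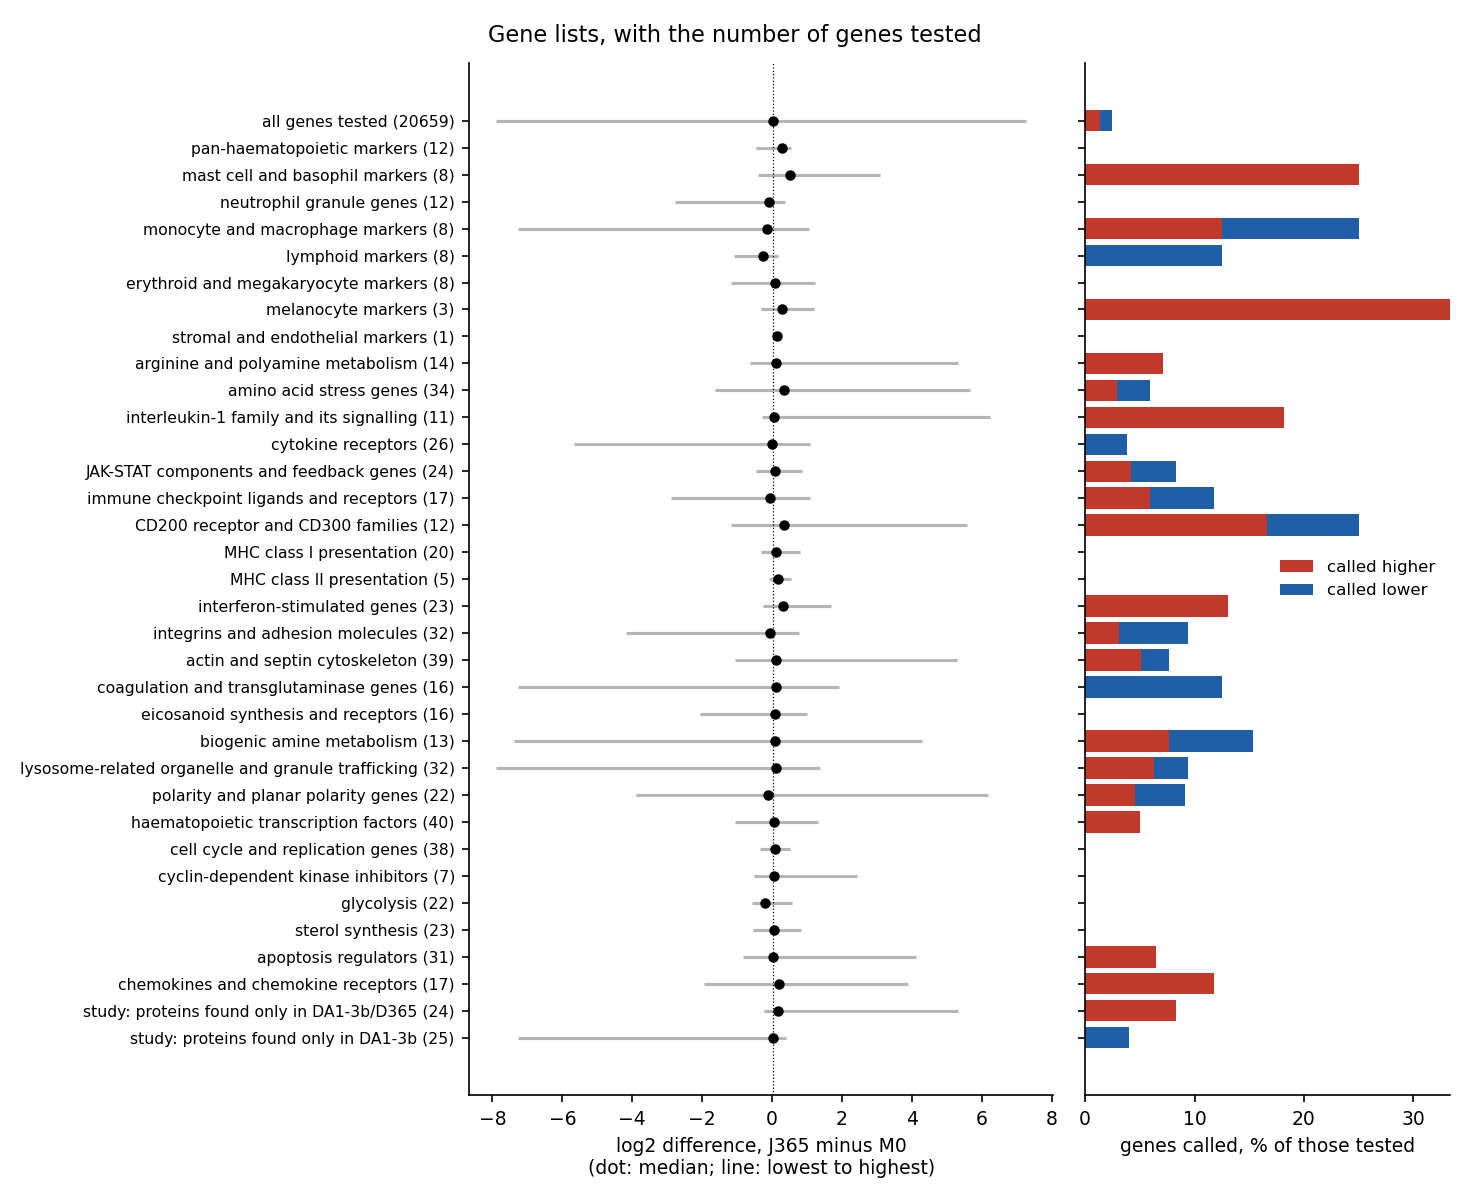
Left, for each list the median (dot) and the range (line) of the log2 difference J365 minus M0, with the number of genes tested in brackets; the dotted line is the median of all genes tested. Right, the percentage of tested genes called higher (red) or lower (blue). The mast cell and basophil list has the highest median, 0.50, and the long lines belong to single genes such as Il1rl1, Cth, F13a1 and Rab38.

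The study's account of its leukemia lines also lists proteins that it found in 1 line and not in the other. Of 24 tested genes for proteins seen in DA1-3b/D365 alone, Ass1 and Otud4 were higher in J365, 20 had a value above 0 and the median was 0.17, and there were 4 calls without array 3 of melanoma group D. Otud4, a deubiquitinase, was 1.40-fold higher (adjusted p = 0.040) and lost its call in 5 of 8 fits without 1 array, and without both replicate 4 arrays. Of 25 genes for proteins seen in DA1-3b alone, F13a1 was lower and no other was called, 16 had a value above 0 and the median was 0.04. Over all genes tested 10987 of 20659 had a value above 0. The lists were chosen by the study on protein of its own lines, and whether J365 or M0 is one of those lines is not given by the labels. Of the other genes in that account, Nudt5 differed by 0.34, Npm1 by 0.34, Bop1 by 0.47, Thoc5 by 0.44, Eif2b4 by 0.08, Ola1 by 0.27, Eno1 by -0.17, Dapk1 by 0.48, Septin9 by 0.19 and Capg by 0.45, none of them called.

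Small differences of neighbouring genes ran together on chromosome 8. Gene order was taken from RefSeq for 11888 genes read on all 7 arrays, and the median difference was followed in windows of 51 consecutive genes. Over all 10886 windows this median lay between -0.17 and 0.41, and 225 of the 448 windows above 0.25 lay on chromosome 8 in 1 unbroken stretch of 225 genes, from Zfp866 to Cnot1. In this stretch 200 of 225 genes had a value above 0 and the median difference was 0.34, against -0.04 over the other 430 genes of the chromosome. Of its genes 24 were called higher and 1 lower, 11.1% of the stretch against 2.33% over all chromosomes, and these higher calls were mostly small, as for Cherp, Med26, Ap1m1 and Fam32a. The stretch was chosen on these differences, so the values are a description.

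The median of the stretch, measured against the M0 mean and less the rest of chromosome 8, was 0.38, 0.43 and 0.37 on J365 replicates 1, 3 and 4. On the M0 arrays it was 0.05, 0.01, -0.03 and -0.01. Within slides the median difference of the stretch was 0.15, 0.50 and 0.33, when that over all chromosomes was -0.12, 0.18 and 0.06. On 5 other chromosomes some windows were above 0.25, and the longest unbroken stretch of them was 37 genes on chromosome 1, from Eif2d to Arl8a, 47 on chromosome 9, from Panx1 to Carm1, 33 on chromosome 11, from Osm to Zmiz2, 25 on chromosome 2 and 5 on chromosome 13. On the first of these the J365 arrays lay 0.28 to 0.34 above the rest of the chromosome and the M0 arrays between -0.13 and 0.07. No window was below -0.25. Copy number was not measured here.

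**Figure D5:**
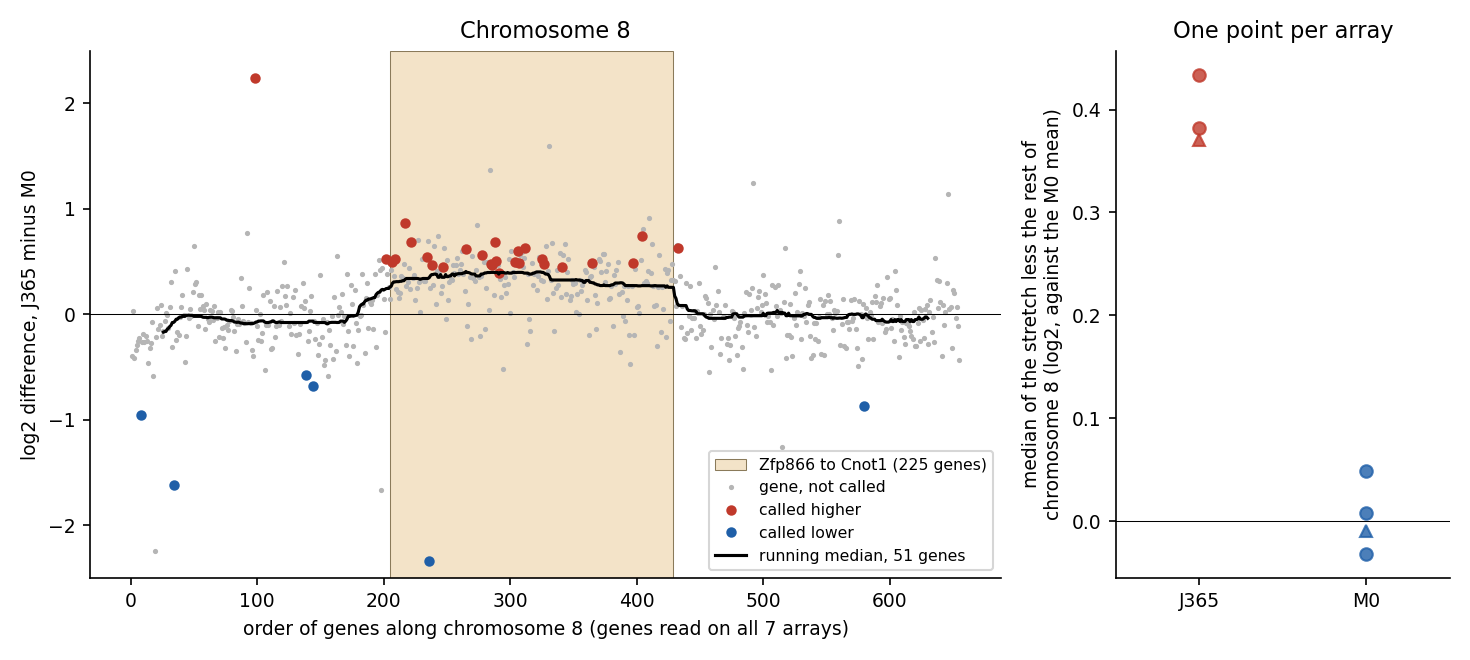
Left, the log2 difference J365 minus M0 of 655 genes in their order along chromosome 8, with the running median over 51 genes in black, called genes in red (higher) and blue (lower), and the stretch from Zfp866 to Cnot1 shaded. Right, for each array the median of the stretch less that of the rest of the chromosome, in log2 units against the M0 mean; the 3 J365 arrays lie at 0.37 to 0.43 and the 4 M0 arrays between -0.03 and 0.05.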

How the data were processed

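RNA of 24 samples was labelled with Cy3 and hybridised to Agilent mouse arrays, 3 of J365, 4 of M0 and 17 of 5 melanoma groups. The authors scanned the arrays and extracted spots with Agilent Feature Extraction 10.7.3.1 according to the submitters' processing notes, and the deposited intensity of each spot is the processed, background-subtracted signal of that program on a linear scale, without scaling between arrays. All 1511424 values of the deposited series table were equal to these intensities. The methods name GeneSpring and no test for the arrays.

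For this report log2 of each intensity was taken less the 75th percentile of its array. Control spots and 117 probes flagged as outliers on any array were left out, and 56488 probes remained. Names came from the RefSeq table (assembly GRCm38.p6) for 32917 probes, and the brightest probe of a gene over all 24 arrays stood for it. A gene was tested if that probe was well above background on every array of J365 or on every array of M0. Limma 3.58.1 in R 4.3.3 fitted all 24 arrays with slide as a block, leaving 15 residual degrees of freedom, and a gene was called at a Benjamini-Hochberg adjusted p under 0.05. Tested on simulated data for J365 versus M0 with 20659 genes, the fit recovered 57% of changes of log2 size 1 and 85% of log2 size 2, and 6 of 148 calls were false. The number of arrays limits the precision. Alternatives changed the scaling, the background correction (normexp on median signals, since mean signals were not used here), the filter, the probe choice, the slide block and the arrays in the fit.

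Named were the 10 largest rises and falls among called genes that no array of either line failed to read and whose lines did not overlap, the 8 largest bounds in each direction, every called member of a list, the member with the smallest p of a list without calls, relatives named for contrast, and genes in the study's text. Rises, falls and bounds were ranked over genes with a RefSeq symbol alone, leaving out provisional ones such as Gm, Rik, LOC and BC names. A few genes that this rule names, 1 of the 10 largest rises among them, are not reported here. For a bound, each array of the dim line was given the lowest signal that passed as well above background on it, or the probe's signal where that was larger, and the mean of these was set against the mean of the bright line. The members and lists were chosen with earlier results of these data known.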

Additional observations from a re-analysis of the deposited data

Results flagged for a closer look

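For 4 of the 89 genes screened, 1 M0 array lay apart from the other 3 by more than Dixon's 95% critical value for 4 samples. Chance passes that limit in about 1 in 20 groups, so about as many genes would be flagged by chance. M0 replicate 4 was the lowest for Slc6a4 (-3.51), Sprn (-0.85) and Il10ra (-1.97), and M0 replicate 1 was the highest for Hmgcs1 (4.67). The lowest J365 array was also replicate 4 for Sprn (-3.49) and Il10ra (-6.27), but not for Slc6a4 (1.85). The part of replicate 4 in these levels was not tested.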

How the results depend on the processing

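All 65 called genes named in the text kept their direction under every alternative tried, and 43 of them were called in every fit. The count of 499 was less firm. It was 303 without the slide block, 285 with the 7 myeloid arrays alone (3 residual degrees of freedom, 202 of the 499 among them), 294 where both lines had to be well above background, which leaves 19228 genes, and 257 where a change of 2-fold was asked for too. It was 886 with quantile normalization and 857 with no scaling (714 higher and 143 lower); the cause was not tested. The count stayed within 1.5 times of 499 with the percentile taken over detected probes, with normexp, with no filter and with another choice of probe. Leaving out 1 array in turn gave 263 (without J365 replicate 4) to 866 (without D replicate 3), with 795 without M0 replicate 4, 316 without J365 replicate 1 and 312 without M0 replicate 2. Leaving out both replicate 4 arrays, chosen after seeing the data, gave 380.

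The titles of both lines share the numbers 1 and 3 alone. Deviations of same-numbered arrays from their line means correlated across genes with r = -0.07 and 0.17. These arrays lay on different slides and the slide was not removed. The values therefore cannot tell whether the numbers pair the arrays. With the replicate block beside slide, 355 genes were called where the unnumbered arrays had a level each, and 687 where they shared 1 level. Of 680 list medians under alternatives, 34 moved by more than the spread between arrays. Signal near background limits genes read in 1 line alone, for which only bounds are given.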
